A study of Mus musculus with 30 samples.

Results

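The comparison described here is that of thyroids from wild-type female C57BL/6 mice of 8 months with thyroids from wild-type females of 2 months. Its members are the 3 deposited count files of each of these groups, chosen by their names, so 6 of the 30 libraries of the series. The other libraries come from wild-type males of 2 and 8 months, FAD4T females and males of 2 and 8 months, and a separate set of wild-type males of 2 and 18 months. The labels do not say what FAD4T mice carry. Wild-type males and FAD4T females of 8 and 2 months, 3 libraries in each group, are set beside the wild-type females where the same age contrast is of interest. Each group stands for 3 mice in the design text, and no litter or cage is given. A p-value here rests on the spread among single libraries within groups, estimated over 24 libraries of both genotypes and sexes. It does not measure spread between litters or cages. Poly(A) RNA of RIN above 7.0 was sequenced as a bulk extract of the gland, in which fewer cells of a type and less RNA per cell cannot be told apart.

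The thyroid is built of follicles, spheres of epithelial cells that take up iodide, attach it to thyroglobulin (Tg) and release thyroid hormone when the stored thyroglobulin is broken down. Between the follicles lie a dense capillary bed, connective tissue, macrophages and the calcitonin-producing C cells, and the parathyroid glands sit on or in the thyroid of the mouse. Interferon-stimulated genes are the antiviral program that cells keep at a low resting level, and fatty acid synthesis is a program of fat cells and other lipid-storing cells that thyroid hormone is known to regulate.

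The 6 libraries held 14083958 to 19438076 counts assigned to genes, and levels are given as CPM, read counts scaled to a common library total. Tg took 5.58%, 18.67% and 19.05% of the counts at 2 months (replicates 1, 2 and 3) and 22.26%, 10.41% and 19.16% at 8 months. Replicate 1 of 2 months stood apart. It held the least Tg, the most mitochondrial transcripts (5.94% of counts, against 2.49% to 4.02% in the other 5), and transcripts of 16 liver genes at a mean level, as log2(CPM + 1), of 6.79, against 0.91 and 1.05 in the other 2 mice of that age and 3.55 to 4.81 at 8 months. Alb, the albumin gene, lay at 2422, 3.39 and 1.55 CPM at 2 months and at 363, 124 and 142 CPM at 8 months. Parathyroid tissue also varied. Pth, the gene of parathyroid hormone, lay at 33042, 79.6 and 6785 CPM at 2 months and at 62.6, 36935 and 12729 CPM at 8 months. The thyroid markers Tg, Nkx2-1 and Pax8 were present in all 6 libraries. Values without single libraries are given beside the counts they change.

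Of 18493 genes tested, 38 rose from 2 to 8 months (0.205% of those tested) and 9 fell (0.0487%), at adjusted p under 0.05 by edgeR's quasi-likelihood test with Benjamini-Hochberg adjustment. A further measure, the unadjusted p under 0.05, was met by 772 genes that were higher (4.17%) and 809 that were lower (4.37%), and these shares serve below as the background for gene lists. DESeq2 called 176 higher and 91 lower, among them all 47. Genes with groups that did not overlap made up 5.83% (higher) and 6.34% (lower) of those tested, and 46 of the 47 called genes were of this kind. The test draws its estimate of spread from 24 libraries. With the 6 libraries alone, 1 gene was called, Mmd2 (adjusted p = 0.0359, edgeR). Single libraries also carried weight: the counts were 193 higher (1.01%) and 18 lower (0.0944%) without replicate 1 of 2 months, 22 and 12 without its replicate 2, 12 and 2 without its replicate 3, 67 and 11 without replicate 1 of 8 months, 10 and 0 without its replicate 2, and 28 and 3 without its replicate 3. The genes called in all 6 of these fits were Kif5c, Mmd2, Pcdh11x, Sftpa1, Myh7, Umod, Slc34a1 and the pseudogene Gm10925.

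**Figure D1:**
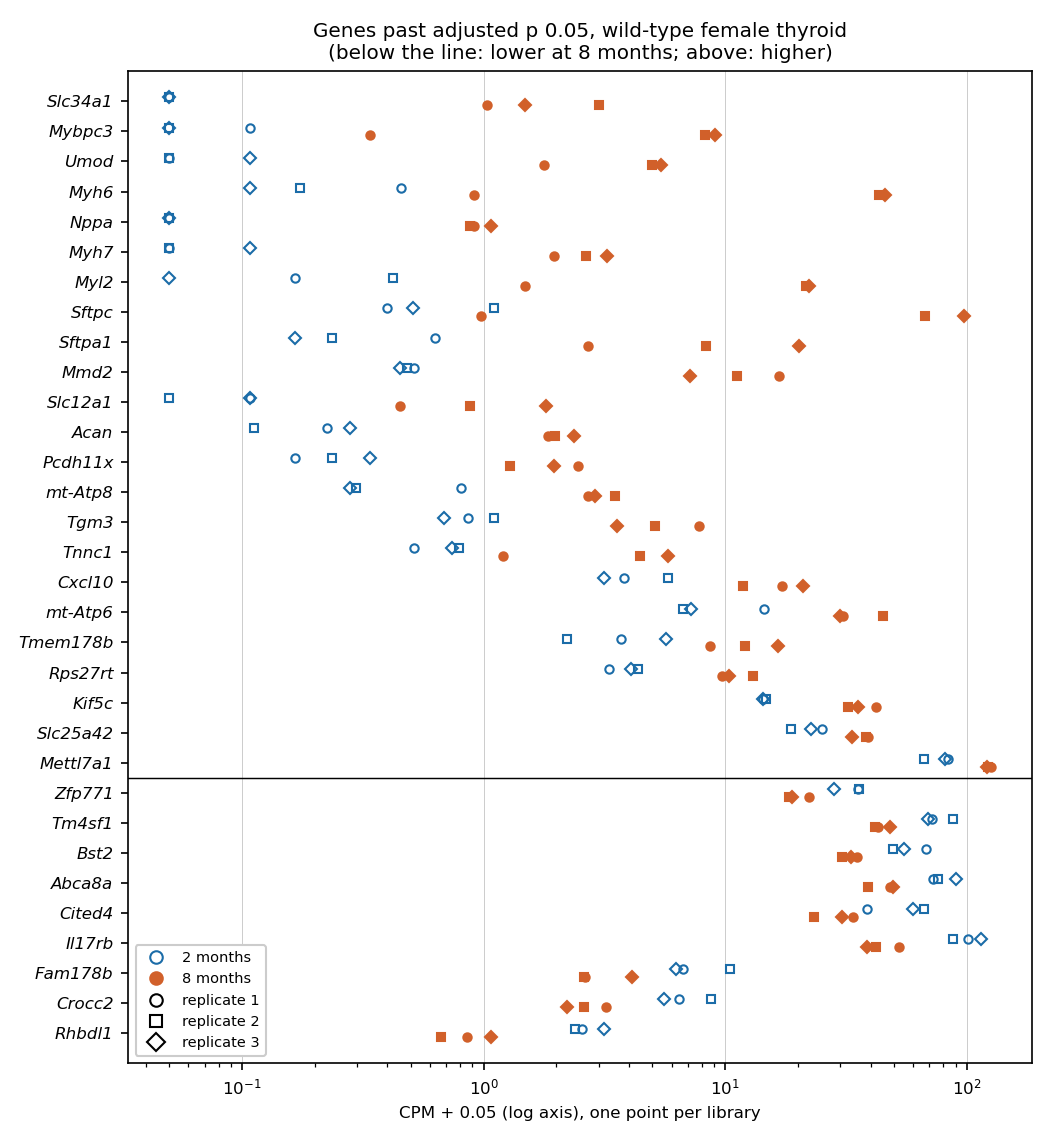
CPM of the 32 called genes other than numbered models and pseudogenes in each of the 6 libraries, on a log axis after adding 0.05 (open blue, 2 months; filled orange, 8 months; circles, squares and diamonds for replicates 1, 2 and 3). The 9 genes below the line fell, and Sftpc is the 1 gene whose groups overlap, with replicate 1 of 8 months at 0.922 CPM among the 2-month libraries.

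Genes induced by type I interferon, an antiviral signal between cells, were mostly at lower levels at 8 months. Of 22 measured members, 19 were lower and 15 were lower at an unadjusted p under 0.05, with 1 higher at that level. The median log2 change was -0.90, against a median within 0.01 of 0 over all genes. After adjustment over all genes, 1 member fell, Bst2, and 1 rose, Cxcl10. The upstream sequences of both are shown because they are the called members and moved in opposite directions. They are the 250 bases before the RefSeq start of each gene in GRCm38.p6, read 5′ to 3′ on the gene's strand. For Bst2 this is chr8:71537473-71537722 (minus strand) and for Cxcl10 chr5:92348890-92349139 (minus strand). Capitals mark the letters GAAA, any 2 bases and GAAA again, a core form of the element that interferon-activated factors bind, searched on both strands.
Bst2: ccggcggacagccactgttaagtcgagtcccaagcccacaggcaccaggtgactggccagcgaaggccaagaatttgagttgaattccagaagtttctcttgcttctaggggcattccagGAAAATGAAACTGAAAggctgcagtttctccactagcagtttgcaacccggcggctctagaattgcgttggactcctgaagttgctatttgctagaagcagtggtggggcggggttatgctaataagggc
Cxcl10: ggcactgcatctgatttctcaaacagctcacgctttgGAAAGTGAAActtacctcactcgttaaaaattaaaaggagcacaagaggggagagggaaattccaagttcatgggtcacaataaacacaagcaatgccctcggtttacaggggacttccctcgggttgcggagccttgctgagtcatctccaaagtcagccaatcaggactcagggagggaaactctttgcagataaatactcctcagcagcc
In Bst2 there were 2 matches, which overlap each other and start 130 and 124 bases before the gene, and in Cxcl10 there was 1, starting 213 bases before it. Of 15 list members in the RefSeq promoter table, 9 held a match in these 250 bases (60%): Isg15, Ifit1, Ifit3, Oas1a, Stat2, Rsad2, Bst2, Gbp2 and Cxcl10. Of all 27025 genes in the table, 3.46% held a match. Ifi27l2a, Oas2, Mx1, Mx2, Usp18 and Rtp4 are among the members with no entry. A match is a run of letters and not a measured binding site, and it occurred in genes that were lower, higher and near 0 alike.

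Bst2 (ENSMUSG00000046718, GRCm38 chromosome 8, 71534255 to 71537456), which encodes tetherin, a membrane protein that holds budding virus particles on the cell, lay at 67.7, 49.4 and 54.9 CPM at 2 months and at 35.1, 30.4 and 33.1 CPM at 8 months. Every 8-month library was below every 2-month library (log2 -0.80, SE 0.15, adjusted p = 0.0246, edgeR). Cxcl10 (ENSMUSG00000034855, chromosome 5, 92346638 to 92348889), a chemokine gene that interferons induce and that draws T cells, went the other way. It lay at 3.78, 5.74 and 3.11 CPM at 2 months and at 17.2, 11.8 and 21 CPM at 8 months, and it rose by a log2 of 1.99 (SE 0.32, adjusted p = 0.00811, edgeR). The Bst2 call was lost without replicate 3 of 2 months and without replicates 2 or 3 of 8 months (highest adjusted p 0.149), and that of Cxcl10 without replicate 3 of 2 months (0.0732). Cxcl10 overlaps Art3 on the other strand, whose reads cannot be told apart from its own.

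The other members of the interferon list did not pass the adjusted test. Irf7, the master regulator of the type I response, lay at 37.4, 15 and 26 CPM at 2 months and at 13.5, 9.01 and 10.9 CPM at 8 months (log2 -1.23, SE 0.26, adjusted p = 0.0541, edgeR). Stat2, a transcription factor of the interferon response, had a log2 change of -0.68 (SE 0.24). The groups of both genes did not overlap, and the highest value of each was in replicate 1 of 2 months.

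Among the antiviral effectors, Oas2, which makes the 2'-5' oligoadenylate that activates RNase L, had the most negative change (log2 -1.79, SE 0.43), from 22.6, 5.06 and 12.9 CPM to 4.15, 2.68 and 4.89 CPM. Isg15, a ubiquitin-like modifier, lay at 17.7, 4.19 and 8.69 CPM and then at 3.34, 2.82 and 3.94 CPM (log2 -1.59, SE 0.41). Usp18, the protease that removes Isg15 and damps the receptor, lay at 11, 7.28 and 13.8 CPM and then at 5.01, 3.23 and 5.37 CPM (log2 -1.23, SE 0.30). Rtp4 (log2 -1.01, adjusted p = 0.0525), Oasl2 (-0.99, 0.0801) and Xaf1 (-0.97, 0.0817) were also lower without overlap. The RNA sensors Ifih1 (log2 0.02) and Ddx58 (-0.06), and the guanylate-binding protein gene Gbp2 (0.10), were near 0.

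The level of the interferon list varied among the young mice. Its mean, as log2(CPM + 1), was 4.69, 4.0 and 4.63 in the 2-month libraries and 3.83, 3.56 and 3.99 in the 8-month ones, so that the lowest young library stood next to the highest older one. Without replicate 1 of 2 months, 14 of 22 members were lower at an unadjusted p under 0.05 (background 3.16%) and the median was -0.79. Over the 6 fits that each left out 1 of these libraries, 13 to 17 members were lower at that level. The number that fell after adjustment went from 0 to 9 over those fits, being 9 without replicate 2 of 2 months, and was 13 by DESeq2. Over all genes tested, 12 fell without replicate 2 of 2 months and 91 by DESeq2.

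The same age contrast was available in 2 other sets of mice. In wild-type males the interferon median was 0.07, with 4 members higher and 1 lower at an unadjusted p under 0.05 (backgrounds 6.15% and 5.52%), and the male list levels were 3.45 to 3.8 at 2 months and 3.69 to 4.09 at 8 months. In FAD4T females the median was -0.80, with 13 members lower and 2 higher at that level (backgrounds 18.2% and 16.6%), 7 that fell after adjustment (background 5.98%) and list levels of 4.20 to 4.48 and then 3.73 to 3.87. The difference between wild-type females and males in the age effect was itself tested, as an interaction. It was negative at an unadjusted p under 0.05 for 15 of the 22 members (background 3.38%) and for 0 after adjustment, by edgeR. By DESeq2 4 members passed, where 123 genes passed in all. Ifi27l2a, another interferon-induced gene, had a log2 change of -1.22 in females and 0.75 in males. For the genotype, 1 member had an interaction below and 1 above 0 at that level. In FAD4T females of 2 months, 2 of 3 libraries held thymocyte transcripts at a list level of 4.04 and 4.52, against 0.94 in the other and 0.92 to 1.0 at 8 months. The 5 FAD4T libraries of either sex at such levels (3.27 to 5.18) were also left out, a choice made after seeing the data. The FAD4T female median was then -0.60. That fit held 1 FAD4T female library of 2 months. Its number of members lower at an unadjusted p under 0.05 (background 2.26%) is therefore not read. The part of those cells in the values was not tested.

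**Figure D2:**
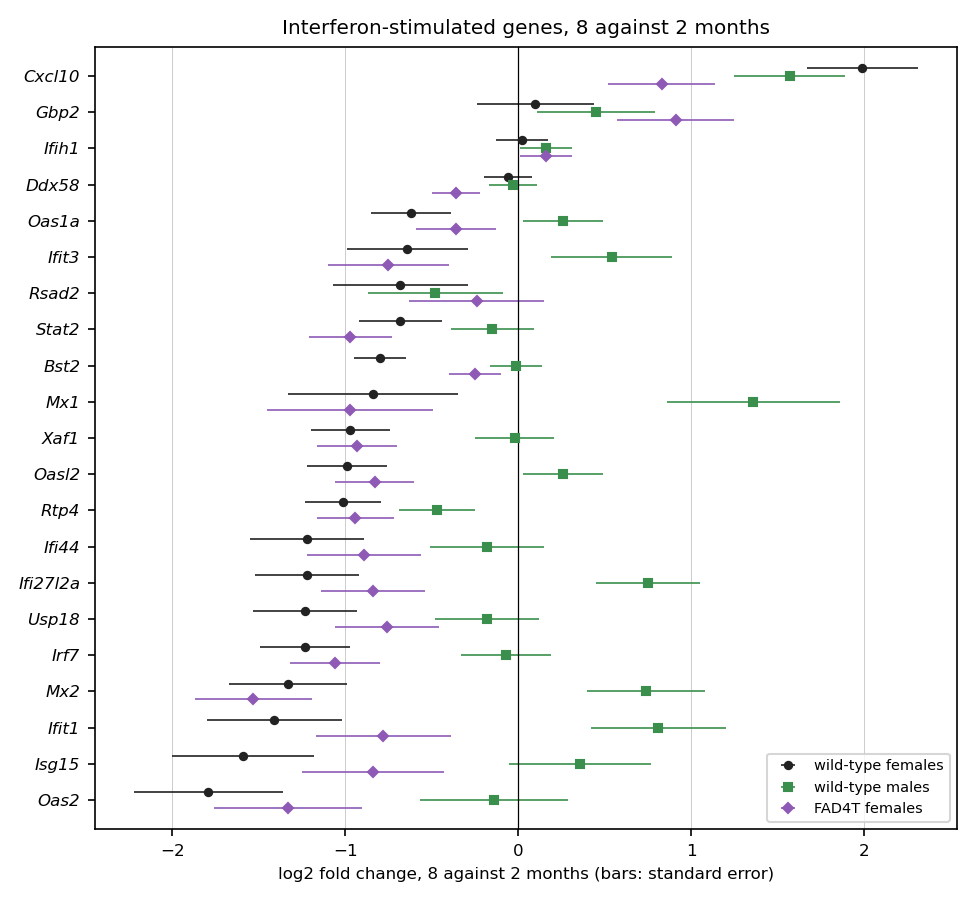
Log2 fold change from 2 to 8 months of 21 of the 22 interferon-stimulated genes, with its standard error as a bar, in wild-type females (circles), wild-type males (squares) and FAD4T females (diamonds). In wild-type females 18 of the 21 lie left of 0, and Cxcl10 is to the right in all 3 sets.

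Of the 9 genes that fell, Il17rb, Tm4sf1, Abca8a, Cited4 and Zfp771 were, with Bst2, the ones with a mean above 10 CPM at both ages. Il17rb (ENSMUSG00000015966, chromosome 14, 29996141 to 30008896), a receptor chain for the cytokine IL-25, lay at 101, 87.5 and 115 CPM at 2 months and at 52.4, 41.9 and 38.7 CPM at 8 months. The groups did not overlap, and the log2 change was -1.19 (SE 0.22, adjusted p = 0.0206, edgeR). Tm4sf1 (ENSMUSG00000027800, chromosome 3, 57285611 to 57301988), a tetraspanin-like protein of endothelial cells, lay at 72.1, 87.6 and 69.4 CPM and then at 43, 41.6 and 48 CPM (log2 -0.79, SE 0.14, adjusted p = 0.0172). It was called in 4 of the 6 fits that left out a library, the most among the 9.

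Abca8a, a lipid transporter of the ABC family, lay at 72.4, 76.2 and 89.9 CPM and fell to 48.3, 38.9 and 49.5 CPM (log2 -0.80, SE 0.17, adjusted p = 0.045). Cited4, a co-regulator that binds the acetyltransferases CBP and p300, lay at 38.6, 66.4 and 59.9 CPM and fell to 33.7, 23.4 and 30.4 CPM (log2 -0.91, SE 0.19, adjusted p = 0.0479). Zfp771, a zinc finger gene, lay at 35.4, 35.9 and 28.1 CPM and fell to 22.2, 18.4 and 18.8 CPM (log2 -0.74, SE 0.15, adjusted p = 0.0422). The groups of these 3 genes did not overlap, and the nearest values were those of Cited4, with 38.6 CPM in a young and 33.7 CPM in an older mouse.

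The remaining 3 fell from lower levels. Crocc2, a relative of the ciliary rootlet protein rootletin, went from 5.53 to 8.7 CPM at 2 months to 2.17 to 3.17 CPM at 8 months (log2 -1.38, SE 0.25). Fam178b went from 6.22 to 10.4 CPM to 2.55 to 4.08 CPM (log2 -1.33, SE 0.26), and Rhbdl1, a rhomboid-like membrane protease gene, from 2.34 to 3.11 CPM to 0.619 to 1.02 CPM (log2 -1.69, SE 0.36). Rhbdl1 and Fam178b overlap other gene models, so their reads are uncertain without strand. Without replicate 2 of 8 months none of the 9 stayed under 0.05 (adjusted p from 0.109 to 0.241), and 2 did without replicate 2 or 3 of 2 months or replicate 3 of 8 months.

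Apart from Cxcl10, 7 named protein-coding genes rose outside the heart, kidney, lung, muscle, cartilage and mitochondrial genes and gene copies described below. The tissue they come from was not tested. Kif5c (ENSMUSG00000026764, chromosome 2, 49619298 to 49774778), a heavy chain of the microtubule motor kinesin-1, had the smallest p of the comparison. It lay at 14.3, 14.7 and 14.3 CPM at 2 months and at 42, 32.2 and 35.4 CPM at 8 months, so the young libraries were almost equal and every older library was above them (log2 1.34, SE 0.17, adjusted p = 0.00311, edgeR). Kif5c rose in wild-type males (log2 1.16, adjusted p = 0.00311) and in FAD4T females (log2 1.38, adjusted p = 0.0018) as well.

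Mettl7a1, a membrane-bound methyltransferase gene, rose from 83.4, 66.7 and 81.2 CPM to 126, 123 and 121 CPM (log2 0.67, SE 0.12, adjusted p = 0.0137). Slc25a42, the mitochondrial carrier of coenzyme A, rose from 25.2, 18.7 and 22.7 CPM to 39.1, 38.2 and 33.6 CPM (log2 0.74, SE 0.14, adjusted p = 0.0184). Tmem178b, a membrane protein gene, rose from 3.66, 2.16 and 5.64 CPM to 8.64, 12 and 16.5 CPM (log2 1.69, SE 0.34, adjusted p = 0.0405). For Mettl7a1 and Slc25a42 the steps were small but the older values lay close together, whereas Tmem178b was spread in both groups.

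Mmd2, a multipass membrane protein of the progestin and adipoQ receptor family, showed a change from near the detection limit. It lay at 0.465, 0.432 and 0.403 CPM at 2 months and at 16.7, 11.1 and 7.13 CPM at 8 months (log2 4.73, SE 0.71, adjusted p = 0.00538). In the other sets its log2 changes were -0.93 (males) and -0.61 (FAD4T females), and the unadjusted p of the difference was 5.87e-05 against males and 9.94e-06 against FAD4T females, neither past 0.05 after adjustment. Tgm3, an epidermal transglutaminase that cross-links proteins, rose from 0.813, 1.05 and 0.633 CPM to 7.78, 5.09 and 3.53 CPM (log2 2.71, SE 0.50), and Pcdh11x, a protocadherin of the X chromosome, from 0.116 to 0.288 CPM to 1.24 to 2.42 CPM (log2 3.19, SE 0.53). Mmd2 and Tgm3 were ordered alike at 8 months, highest in replicate 1 and lowest in replicate 3. Without replicate 2 of 8 months, Kif5c, Pcdh11x, Cxcl10 and Mmd2 stayed under 0.05. Mettl7a1, Slc25a42, Tmem178b and Tgm3 did not (highest adjusted p 0.109, edgeR), nor did they without replicate 2 of 2 months (0.13). Tmem178b was at 0.177 without replicate 3 of 8 months. Slc25a42 and Tgm3 were also lost without replicate 3 of 2 months (highest 0.147), and Tgm3 without replicate 1 of 8 months (0.0544).

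Transcripts of heart, kidney, lung and cartilage made up 12 of the 38 rises. The heart genes Myh6 (a cardiac myosin heavy chain), Mybpc3 (cardiac myosin-binding protein), Myl2 (ventricular light chain) and Nppa (atrial natriuretic peptide) were absent or nearly so at 2 months. Myh6 lay at 0.407, 0.123 and 0.0576 CPM at 2 months and at 0.864, 43.3 and 45.9 CPM at 8 months. Myl2 followed, with 0.116, 0.370 and 0 CPM and then 1.44, 21.5 and 22.2 CPM, and Mybpc3 lay at 0.288, 8.19 and 9.03 CPM at 8 months. The slow-muscle genes Myh7 and Tnnc1, which the heart shares, went the same way, with Tnnc1 at 1.15, 4.4 and 5.77 CPM at 8 months and 0.465 to 0.740 CPM at 2 months. In replicate 1 of 8 months the cardiac genes were near the young values. Tnnc1, Myl2 and Myh7 overlap other gene models, so their reads are uncertain without strand. Of the 6 fits that left out a library, Tnnc1 was called in 1 (highest adjusted p 0.2, edgeR). Nppa was called in 2 of them (0.108), Myh6 in 3 (0.108), Myl2 in 3 (0.137) and Mybpc3 in 5 (0.0806).

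The lung genes were divided among the libraries in the same way. Sftpc, the surfactant protein of alveolar type II cells, lay at 0.349, 1.05 and 0.461 CPM at 2 months and at 0.922, 67.4 and 97.3 CPM at 8 months, with groups that overlapped. Of the 6 fits that left out a library, Sftpc was called in 1 (highest adjusted p 0.179, edgeR). Sftpa1, another surfactant gene, lay at 0.581, 0.185 and 0.115 CPM and then at 2.65, 8.25 and 20.1 CPM (log2 5.10, SE 0.73, adjusted p = 0.00538). Of 10 alveolar list members, 6 were higher at an unadjusted p under 0.05. The airway list, led by Scgb3a2 (0.755, 0.247 and 0.173 CPM, then 2.65, 28.5 and 13.5 CPM, adjusted p = 0.101), had 3 of 15, and 1 without replicate 1 of 8 months.

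Kidney genes differed by less between the older libraries. Umod, the uromodulin gene of the thick ascending limb, lay at 0, 0 and 0.0576 CPM at 2 months (1 count in all) and at 1.73, 4.95 and 5.37 CPM at 8 months. Slc34a1, the phosphate transporter of the proximal tubule, had 0 counts at 2 months and lay at 0.98, 2.96 and 1.43 CPM at 8 months (81 counts). Slc12a1, the furosemide-sensitive salt transporter, lay at 0.403, 0.825 and 1.77 CPM at 8 months with 2 counts at 2 months. Of the 6 fits that left out a library, Slc12a1 was called in 2 (highest adjusted p 0.186, edgeR). Of 12 kidney list members, 3 were at 0 in all young libraries and none in the older ones, and list levels were 0.66 to 0.74 and then 1.31 to 1.65. Acan, the aggrecan of cartilage, rose from 0.0617 to 0.230 CPM to 1.79 to 2.31 CPM (adjusted p = 0.0391), and was called in 2 of the 6 fits that left out a library (highest adjusted p 0.137). Of 11 cartilage genes, 2 were higher and 2 lower at an unadjusted p under 0.05, and Acan alone passed after adjustment. The source of these transcripts was not tested.

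**Figure D3:**
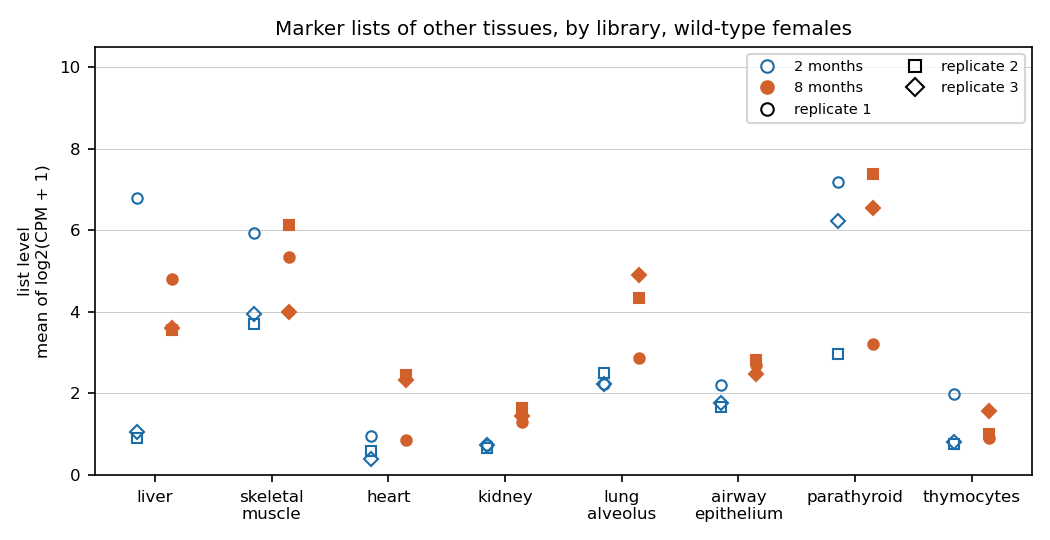
Mean level, as log2(CPM + 1), of marker lists of 8 other tissues in each of the 6 libraries (open blue, 2 months; filled orange, 8 months; marker shape for the replicate). Liver transcripts are at 6.79 in replicate 1 of 2 months and at 0.91 and 1.05 in the other young libraries, and the heart list is at 2.45 and 2.34 in replicates 2 and 3 of 8 months against 0.87 in replicate 1.

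Liver genes did not pass with all 6 libraries, 15 of 16 having a negative log2 change, since replicate 1 of 2 months lay above all others. Without it, 14 of the 16 liver genes were called higher at 8 months, and they are among the 193 rises of that fit. Of those 193, 122 had in replicate 1 a level above every 8-month library. Of the 47 genes called with all libraries, 43 were also called without that mouse. In wild-type males the liver list stood at 0.67 to 0.83 when young and at 3.77 to 4.64 when older, and in FAD4T females at 0.92 to 1.72 and then at 3.74 to 3.8, so that replicate 1 of the wild-type females was the 1 library of 2 months at such a level among these sets.

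Of the genes on the mitochondrial genome, the 2 for subunits of ATP synthase rose. mt-Atp6 lay at 14.5, 6.66 and 7.2 CPM at 2 months and at 30.8, 45.2 and 29.9 CPM at 8 months (log2 1.9, SE 0.32, adjusted p = 0.0101), and mt-Atp8 at 0.755, 0.247 and 0.230 CPM and then 2.65, 3.44 and 2.85 CPM (log2 2.83, SE 0.46, adjusted p = 0.00847). mt-Co3, mt-Co2 and mt-Nd4l were higher without overlap, with adjusted p from 0.156 to 0.224, and without replicate 1 of 2 months mt-Co3 (log2 1.94, adjusted p = 0.0104, edgeR) and mt-Co2 (log2 1.52, adjusted p = 0.0423) passed. Without replicate 3 of 2 months or replicate 2 of 8 months, neither mt-Atp6 nor mt-Atp8 did (highest adjusted p 0.091 for mt-Atp6 and 0.0806 for mt-Atp8), and without replicate 2 of 2 months mt-Atp8 did and mt-Atp6 did not. These 5 are counted at 0.230 to 57.6 CPM, far below genes of the same genome such as mt-Co1 (10577 to 18680 CPM), mt-Cytb and mt-Nd1, whose log2 changes were 0.05, 0.03 and -0.08. On chromosome 1, between positions 24611535 and 24616197, lie 4 pseudogenes that rose with them, Gm28439, Gm28437, Gm10925 and Gm29216. Gm10925 lay at 22, 9.44 and 9.96 CPM and then at 54.2, 88 and 64.7 CPM (log2 2.32, SE 0.34, adjusted p = 0.00538). Such copies can share reads with the mitochondrial genes, and mt-Atp6 and mt-Atp8 overlap each other, so the split of reads among them is uncertain. All 6 rose in wild-type males and FAD4T females as well. The sum of mitochondrial transcripts did not separate the ages, at 5.94%, 2.49% and 2.72% of counts and then 3.20%, 4.02% and 3.02%.

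The other 12 rises among pseudogenes, copies and unnamed models were at 0.232 to 13 CPM. Rps27rt, a retrotransposed copy of a ribosomal protein gene, rose from 3.25, 4.32 and 4.03 CPM to 9.68, 13 and 10.3 CPM (log2 1.5, SE 0.24, adjusted p = 0.00767), and Ftl1-ps1, a copy of ferritin light chain, had a log2 change of 1.62. Of 24 ribosomal protein genes on a list of their own, 0 passed an unadjusted p of 0.05, and the median was -0.04. Reads of near-identical copies cannot be assigned with certainty.

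Fatty acid and triglyceride synthesis was at lower levels at 8 months. Of 20 measured members of the list, 17 were lower, 10 of them at an unadjusted p under 0.05 with 0 higher at that level, and the median log2 change was -0.64. None passed after adjustment with all libraries, by edgeR, and 4 passed by DESeq2, which called 176 genes higher and 91 lower in all. The pathway turns citrate into acetyl-CoA, builds palmitate from it, desaturates it and joins it to glycerol, and is switched on by SREBP-1c and ChREBP.

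Srebf1, the gene of SREBP-1, had the smallest p among them. It lay at 197, 212 and 231 CPM at 2 months and at 155, 119 and 145 CPM at 8 months (log2 -0.60, SE 0.14, adjusted p = 0.0808, and 0.0445 without replicate 1 of 2 months). Mlxipl, the gene of ChREBP, lay at 110, 54.6 and 69.1 CPM and then at 41.4, 42.3 and 38.6 CPM (log2 -0.93, SE 0.35). Both were lower in every older library. Thrsp (Spot 14), a thyroid hormone-responsive gene of lipogenic tissues, lay at 572, 478 and 509 CPM and then at 323, 184 and 244 CPM (log2 -1.05, SE 0.37, adjusted p = 0.31).

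Of the enzymes in order, Acly, which makes cytosolic acetyl-CoA, lay at 711, 836 and 888 CPM and then at 400, 198 and 365 CPM (log2 -1.34, SE 0.35, adjusted p = 0.109). Fasn, the fatty acid synthase, lay at 1833, 1796 and 2179 CPM and then at 1377, 546 and 973 CPM (log2 -1.0, SE 0.44, adjusted p = 0.517). Dgat2, which makes triglyceride, lay at 227, 213 and 247 CPM and then at 146, 90.2 and 101 CPM (log2 -1.02, SE 0.27, adjusted p = 0.109). For each of these, replicate 2 of 8 months was the lowest and replicate 1 the highest of the older mice. Me1, which supplies NADPH, and Agpat2, an acyltransferase, were lower without overlap (log2 -0.76 and -0.79), whereas Elovl5, Gpam and Fads1 had log2 changes of 0.20, 0.36 and 0.02. The desaturase Scd1, at 4159, 4465 and 6112 CPM and then 3924, 1810 and 3497 CPM, did not separate beyond its spread in the fit (log2 -0.67, SE 0.41).

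The summed CPM of 17 white adipocyte markers were 2419 to 3543 at 2 months and 2937 to 4036 at 8 months, with a median change within 0.01 of 0. Of 13 brown adipocyte markers, 10 were lower and 3 higher, 3 and 1 of them at an unadjusted p under 0.05. Their median was -0.26. Without replicate 1 of 2 months it was -0.03, with 1 lower and 1 higher at that level. Ucp1, the uncoupling protein, lay at 246, 177 and 181 CPM and then at 131, 78 and 53.7 CPM (log2 -1.20, SE 0.57, adjusted p = 0.584). Dio2, described below, is also on this list and had its most positive change. Genes that burn fatty acids had a median of 0.07. Cpt1a, the gate of mitochondrial uptake, lay at 64.4, 88.3 and 79.3 CPM and then at 126, 123 and 121 CPM (log2 0.67, adjusted p = 0.171), and Pdk4, which spares glucose, at 42.8, 37.3 and 59.4 CPM and then at 96.6, 130 and 74.8 CPM (log2 1.11, adjusted p = 0.231). In the synthesis of cholesterol 18 of 23 genes were lower, 4 at an unadjusted p under 0.05 and 0 after adjustment, with Dhcr7, Nsdhl and Cyp51 from log2 -0.57 to -0.43. Without replicate 1 of 2 months 1 was lower at that unadjusted level, with a median of -0.23 against -0.14 with all libraries.

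Over the fits that left out 1 library, 6 to 11 of the 20 synthesis genes were lower at an unadjusted p under 0.05, with the fewest without replicate 2 of 8 months. The medians of the same list were 0.17 in wild-type males and 0.01 in FAD4T females. The young FAD4T group is the one with thymocyte-rich libraries, and their part in its median was not tested. In the interaction of age and sex, 8 of 20 members were negative at that level, and in that of age and genotype 4 (background 3.59%), with 0 after adjustment in either by edgeR. Dgat2 had a log2 change of 0.63 in males and Agpat2 of 0.39. The list stood at 7.41 to 7.55 in wild-type females of 2 months, above the 6.31 to 7.15 of males of that age and the 6.75 to 6.99 of FAD4T females, and at 6.57 to 7.19 in wild-type females of 8 months.

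**Figure D4:**
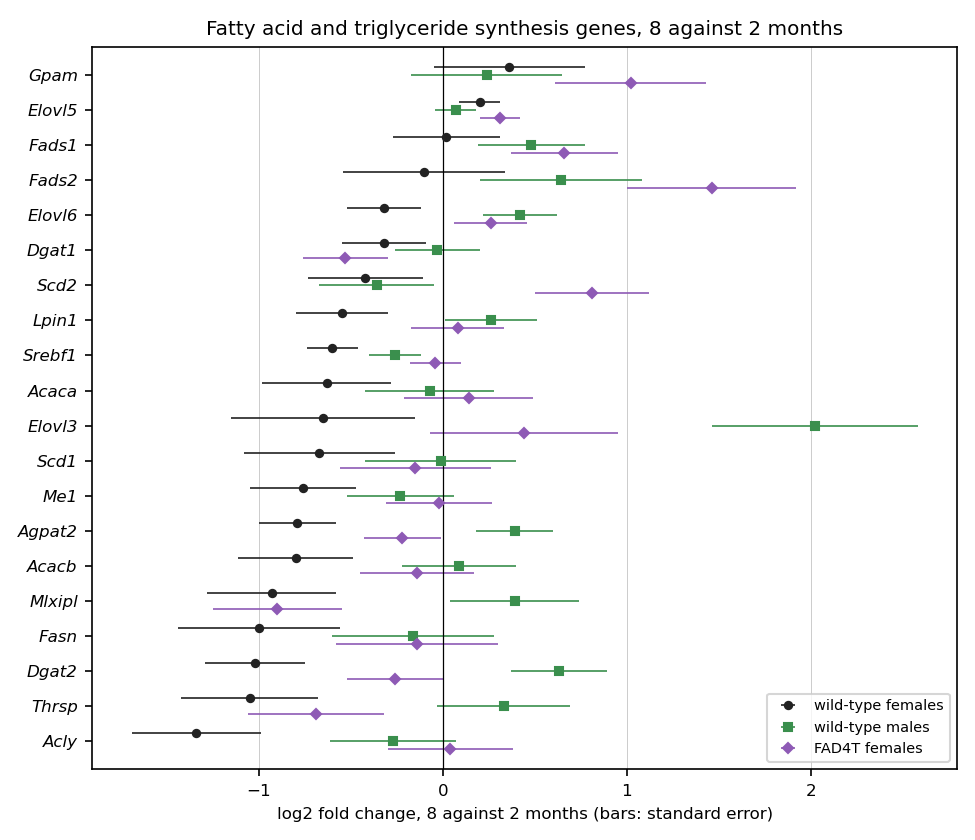
Log2 fold change from 2 to 8 months of the 20 genes of fatty acid and triglyceride synthesis, with its standard error as a bar, in wild-type females (circles), wild-type males (squares) and FAD4T females (diamonds). In wild-type females 17 of 20 lie left of 0, with Acly at -1.34 as the most negative, while in the other sets the medians are 0.17 and 0.01.

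The MHC class II genes, by which macrophages, dendritic cells and B cells show antigen to helper T cells, were higher at 8 months without overlap for H2-Aa, H2-Ab1 and H2-Eb1, though none passed after adjustment. H2-Aa lay at 94.9, 93.7 and 80.1 CPM at 2 months and at 187, 138 and 157 CPM at 8 months (log2 0.84, SE 0.18, adjusted p = 0.0537, and 0.0359 without replicate 1 of 2 months). H2-Ab1 lay at 81.6, 94.9 and 72.8 CPM and then at 155, 124 and 127 CPM (log2 0.70, SE 0.18, adjusted p = 0.101), and H2-Eb1 had a log2 change of 0.66 (SE 0.18). Of 16 antigen presentation genes, 6 were higher at an unadjusted p under 0.05 and 0 lower, with a median of 0.23. MHC genes share sequence, which makes their counts less certain.

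Of 16 macrophage and monocyte markers, 10 were lower and 6 higher, 4 and 1 of them at an unadjusted p under 0.05, and the median was -0.14. Without replicate 1 or 3 of 8 months 2 were lower at that level. The list holds Cd163, a scavenger receptor of resident macrophages, at 19.2, 14.1 and 22.5 CPM and then at 9.74, 12.9 and 11.5 CPM (log2 -0.71, SE 0.26), and Lyve1, a hyaluronan receptor of lymphatic vessels and perivascular macrophages, at 10.1 to 11.8 CPM and then at 4.48 to 6.53 CPM (log2 -0.92, SE 0.36). Of 13 B and plasma cell genes, 8 were higher and 5 lower, 2 and 1 of them at an unadjusted p under 0.05, with a median of 0.34 that was -0.01 without replicate 3 of 2 months. The immunoglobulin light chain gene Igkc lay at 4.82, 0.740 and 0.576 CPM and then at 28.7, 7.22 and 12.3 CPM (log2 2.97, SE 1.02, adjusted p = 0.302). Jchain, which joins IgA and IgM, lay at 0.617 to 2.27 CPM and then at 3.65 to 7.4 CPM (log2 2.00, adjusted p = 0.379). Ctss, a cathepsin of antigen-presenting cells that also stands in the list of thyroglobulin breakdown, lay at 20.2, 31.7 and 25.7 CPM and then at 49.2, 38.1 and 53.3 CPM (log2 0.86, adjusted p = 0.137). None of these passed the test.

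Vessel and wall genes were lower, again without a gene past the adjusted test on either list. Of 18 endothelial genes, 17 were lower and 7 at an unadjusted p under 0.05 (median -0.30). The latter number was 4 without replicate 1 of 2 months (median -0.41, background 3.16%) and 4 to 6 over the 6 fits that left out a library. Tie1, a receptor kinase of endothelium, lay at 61.2, 74.5 and 70.5 CPM and then at 57.4, 38.7 and 50.9 CPM (log2 -0.49, SE 0.15, adjusted p = 0.184). Of 12 smooth muscle and pericyte genes, 10 were lower, 5 at that level (median -0.52), and 3 without replicate 1 of 2 months (median -0.45) or without replicate 2 of 8 months. Pdgfrb, the receptor that marks pericytes, lay at 57, 54.8 and 53.8 CPM and then at 44.3, 34.3 and 38.7 CPM (log2 -0.50, SE 0.13, adjusted p = 0.109), and Myl9 and Notch3 had log2 changes of -0.76 and -0.59.

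In wild-type males the vessel lists were also lower, with medians of -0.56 for endothelium (12 of 18 lower at an unadjusted p under 0.05) and -0.59 for smooth muscle and pericytes (8 of 12), and Pdgfrb (adjusted p = 0.00311), Notch3 (0.0117) and Tie1 (0.0482) fell there. In FAD4T females both medians were -0.07, with 5 endothelial genes lower at an unadjusted p under 0.05 (background 18.2%), 3 of which fell (background 5.98%), and with 2 smooth muscle and pericyte genes lower and 1 higher, of which 1 fell. The young FAD4T group held the thymocyte-rich libraries described above, whose part in these values was not tested. Tm4sf1, one of the 9 that fell, had log2 changes of -0.56 in males and -0.39 in FAD4T females, with adjusted p of 0.0803 and 0.0722. Fibroblast genes had a median of -0.36 with 2 of 12 lower at an unadjusted p under 0.05, and of -0.14 with 1 lower without replicate 1 of 2 months.

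No gene of thyroid hormone synthesis passed the test. Of 14, 1 was higher and 1 lower at an unadjusted p under 0.05, the median was 0.22, and without replicate 1 of 2 months it was -0.06. Tg lay at 49991, 197321 and 196102 CPM at 2 months and at 249327, 100837 and 195905 CPM at 8 months, with a log2 change of 0.30 (SE 0.55). Slc5a5, the sodium-iodide symporter that brings iodide into the cell, lay at 50, 176 and 61.7 CPM and then at 294, 240 and 131 CPM (log2 1.21, SE 0.59, adjusted p = 0.602). The ages overlapped in both genes, and the lowest value of each was in replicate 1 of 2 months.

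Slc26a4 (pendrin, an iodide exchanger) lay at 0.185 to 2.11 CPM (log2 1.42, SE 0.60, adjusted p = 0.48). Duox1, an oxidase that makes hydrogen peroxide for hormone synthesis, lay at 5.17, 7.28 and 6.22 CPM and then at 5.01, 3.37 and 3.6 CPM (log2 -0.64, SE 0.30, adjusted p = 0.571), with groups that only just did not overlap. A further 9 genes, for oxidase subunits, transporters, channels and the iodotyrosine deiodinase, had log2 changes from -0.69 to 0.32 with standard errors of 0.20 to 0.71, and none passed an unadjusted p of 0.05.

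Of the transcription factors of the follicular cell, Hhex, a homeobox gene needed for the thyroid bud, was higher without overlap, at 70.3, 105 and 93 CPM and then 140, 120 and 142 CPM (log2 0.59, SE 0.21, adjusted p = 0.347). The other 6, Pax8 (log2 0.16, SE 0.21) and Nkx2-1 (-0.23, SE 0.20) among them, did not pass an unadjusted p of 0.05. Foxe1 was at 0.03 (SE 0.41), and at -0.31 without replicate 1 of 2 months. Of 12 genes of hormone handling, 6 were higher and 6 lower, 3 and 1 of them at an unadjusted p under 0.05. Their median was 0.00, with log2 changes from -1.52 to 1.97, and Thrsp, described above, is among the lower ones. Dio2, the enzyme that activates thyroxine, lay at 4.18, 4.56 and 6.33 CPM and then at 18.9, 14.8 and 9.03 CPM (log2 1.5, SE 0.40, adjusted p = 0.115 by edgeR, and 0.0192 by DESeq2). Dio1, the other activating deiodinase, had 0.53 (SE 0.36), and Thrb, a nuclear hormone receptor, lay at 11.9 to 13.4 CPM and then at 15.8 to 21.3 CPM (log2 0.52, SE 0.18, adjusted p = 0.279).

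The circadian clock genes, which run an activator loop of Clock and Arntl (BMAL1) against repressors of the Per and Cry families, did not separate the ages. None of 12 passed even an unadjusted p of 0.05, and the median was -0.01. The changes ran from -0.38 (Per1, SE 0.56) to 0.27 (Rora, SE 0.21). In males Arntl rose (log2 1.52, adjusted p = 0.0482), and in females it was at 0.14 (SE 0.35). The labels give no hour of dissection.

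Immediate early genes, which respond within minutes to growth signals, stress and handling of tissue, were higher in part. Of 19, 5 were higher at an unadjusted p under 0.05 and none lower, with a median of 0.37 and 0 after adjustment by edgeR or DESeq2. The number was 2 without replicate 1 of 2 months (median 0.27, background 5.6%), 2 without its replicate 3 or without replicate 3 of 8 months, and 9 without replicate 2 of 2 months. Egr1 lay at 21.8, 28.3 and 20.4 CPM at 2 months and at 35.8, 47.1 and 56.7 CPM at 8 months (log2 0.98, SE 0.33, adjusted p = 0.259). Fos lay at 7.32, 11.6 and 9.21 CPM and then at 14.3, 25.2 and 41.8 CPM (log2 1.53, SE 0.66). In males 3 members were higher and 3 lower at an unadjusted p under 0.05, with a median of -0.11. The male log2 changes were -0.99 for Egr1 and -1.72 for Fos, with unadjusted interaction p of 3.74e-04 and 0.0028.

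**Figure D5:**
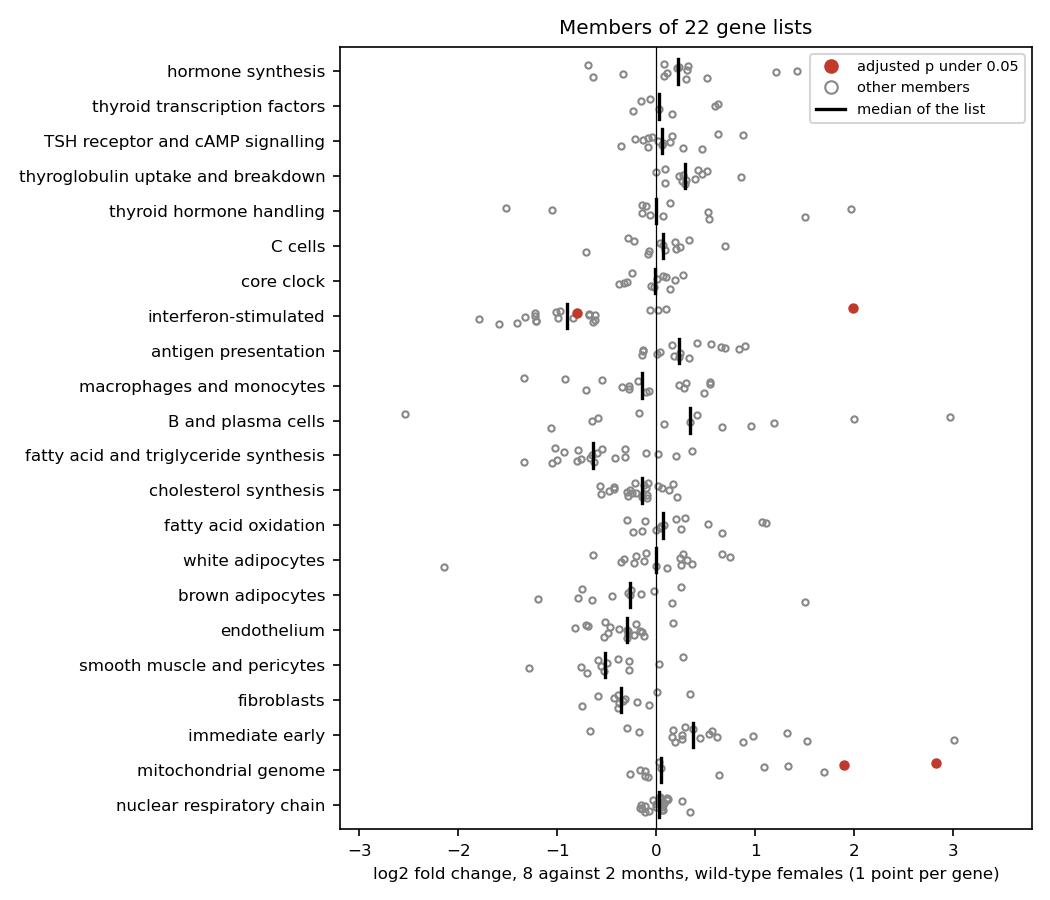
Log2 fold change from 2 to 8 months in wild-type females for each tested member of 22 gene lists (grey, not past adjusted p 0.05; red, past it), with the median of each list as a black bar. The interferon and fatty acid synthesis lists have medians of -0.90 and -0.64, and the hormone synthesis, transcription factor and clock lists lie between -0.01 and 0.22.

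Of the 38 rises in wild-type females, 19 were also called higher in wild-type males (background 0.422%; 50% of the female list and 24.4% of the 78 male rises) and 22 in FAD4T females (background 4.15%; 57.9%, and 2.86% of 768). Both sets shared 11, which were Kif5c, mt-Atp6, mt-Atp8, Rps27rt, Ftl1-ps1 and 6 pseudogenes. Outside the mitochondrial genes, pseudogenes, copies and unnamed models, males shared Kif5c, Cxcl10, Slc25a42, Myh7, Myl2, Nppa, Slc12a1, Slc34a1 and Umod. Of these, Myh7, Myl2, Nppa, Slc12a1, Slc34a1 and Umod are heart, muscle or kidney genes. FAD4T females shared, outside the same classes, Kif5c, Pcdh11x, Tmem178b, the lung genes Sftpa1 and Sftpc, and the cartilage gene Acan. Of the 9 falls, 0 were among the 50 male falls (background 0.27%), and 3 were called in FAD4T females (background 5.98%), namely Abca8a, Crocc2 and Zfp771 (33.3%, and 0.271% of 1106). In sign, 37 of the 38 rises and 8 of the 9 falls were matched in males, and 31 and 8 in FAD4T females. The share of all tested genes matched in sign is not given here, so these counts are a description. Genes called in wild-type females and in neither other set were 8 rises, among them Mettl7a1, Mmd2 and Tgm3, and 6 falls, which were Bst2, Cited4, Fam178b, Il17rb, Rhbdl1 and Tm4sf1.

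Whether the age effect differed between the sets was tested directly. Between wild-type females and males, 1 of 18493 genes passed by edgeR (0.00541%), with 1078 at an unadjusted p under 0.05 and 123 called by DESeq2. The 1 gene was Zfp503, a zinc finger gene, which is no member of the 47. Between wild-type and FAD4T females 0 passed by edgeR, with 1520 at an unadjusted p under 0.05 (8.22%) and 16 by DESeq2. Among the 47 called genes, 14 had an unadjusted p under 0.05 for the difference from males and 17 for that from FAD4T females, including Mettl7a1 (0.00103 and 0.0017) and Cited4 (0.00282 and 0.0022). The 47 were called on the same wild-type female libraries that enter these interactions, so the counts are a description. In FAD4T females 768 genes rose and 1106 fell, and in males 78 rose and 50 fell. Without the 5 FAD4T libraries rich in thymocyte transcripts, the FAD4T females of 2 months were down to 1 library. The calls of that fit are therefore not set beside these.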

How the data were processed

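Bulk poly(A) RNA of thyroids was sequenced by the submitters. The authors deposited unscaled counts for each gene, obtained from read pairs with featureCounts v1.6.0 over exons of the Ensembl GRCm38 annotation with no strand option, per the file headers. The submitters' processing notes instead give HISAT2 2.0.4 with StringTie 1.3.4d and the build GRCm39, beside cutadapt 1.9. The headers were followed, and coordinates here are GRCm38. Each file held 50686 genes, and gene symbols were found for all but 310.

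Counts of 24 libraries (8 groups of 3, both genotypes and sexes at 2 and 8 months) entered 1 fit with edgeR 4.0.16 in R 4.3.3, with TMM scaling, a minimum count of 10 for the low-count filter, a mean per group and the quasi-likelihood test on 16 residual degrees of freedom. The 6 libraries of wild-type males of the separate set were not used. P-values were adjusted over 18493 genes by Benjamini-Hochberg, with a threshold of 0.05. DESeq2 1.42.0, other scaling, no filter, only the groups compared, a replicate block, and leaving out each library were the alternatives. Replicate numbers are those of the labels. No pair of files was identical. The test was also run on simulated counts, which had 1 spread for all genes and no library rich in another tissue. That run does not cover libraries of the latter kind. Counts set the precision of genes below about 1 CPM.

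The comparison, its gene lists and the rule for the genes named were chosen with earlier results of these data known. The rule takes, in each direction, the called genes of at least 5 CPM without overlap, by fold and by p, all genes of the hormone synthesis, transcription factor and clock lists, and up to 4 genes of smallest p of every other list. Genes named outside it, among them those called below 5 CPM, were chosen after their values were seen. Some results are not reported here.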

Additional observations from a re-analysis of the deposited data

Results flagged for a closer look

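Zfp503, a zinc finger gene, was the 1 gene that edgeR called for a difference in age effect between wild-type females and males. DESeq2 called 123 genes for it. The difference was 0.89 on the log2 scale (SE 0.14, adjusted p = 0.043, edgeR). In females it lay at 63.2, 56.3 and 56.9 CPM at 2 months and at 65.7, 67.1 and 69.3 CPM at 8 months (log2 0.20, adjusted p = 0.606). In males it lay at 76.4, 68.5 and 75 CPM and fell to 45.3, 40.8 and 49.7 CPM (log2 -0.70, adjusted p = 0.00311). No gene was called for this difference when the fit held only the groups compared, had no low-count filter or had a replicate block, nor without replicate 2 or 3 of the females of 2 months or replicate 2 or 3 of those of 8 months.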

How the results depend on the processing

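The numbers of called genes depended on the processing. For rises in wild-type females (38), only the groups compared gave 1, DESeq2 176, and the removal of the 5 thymocyte-rich FAD4T libraries with replicate 1 of 2 months, added after seeing the data, 217. Leaving out 1 library gave 10 to 193. For falls (9), no low-count filter gave 15, only the groups compared 0, DESeq2 91, the added removals 23 (5 libraries) and 31 (6 libraries), and leaving out 1 library 0 to 18. For males (128), the values were 78 with no filter, 455 with only the groups compared, 489 by DESeq2 and 570 with 6 libraries removed, and 128 to 396 on leaving out 1 wild-type female library. For FAD4T females (1874) they were 912, 62, 3652, and 0 or 73 with 5 or 6 libraries removed, and 1309 to 3135. For age by sex (1) they were 0 with no filter, 0 with only the groups compared, 123 by DESeq2, and 4 or 7 with 5 or 6 libraries removed, and 0 to 4. For age by genotype (0), no filter gave 2 and DESeq2 16. The causes were not tested, beyond the fewer libraries of those fits.

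Deviations from the group mean of same-numbered libraries correlated at -0.29, -0.51 and 0.41, and replicate 3 alone correlated best with its own number. With 3 libraries in each group, such values cannot settle whether samples of the same number belong together. A replicate block gave 33 rises and 8 falls, with 34 of the 47 genes kept, and 0 for age by sex. Together with only the groups compared, the replicate block gave 0 rises, 0 falls, 566 in males, 21 in FAD4T females and 0 for age by sex.

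Of the genes named, the sign turned for those that follow, none of which was called with all libraries. On leaving out 1 library, the ranges were -0.11 to 0.33 for mt-Co1, -0.15 to 0.49 for mt-Cytb, -0.27 to 0.43 for mt-Nd1, -0.07 to 0.18 for Ifih1, -0.17 to 0.01 for Ddx58, -0.16 to 0.37 for Gbp2, -0.16 to 0.30 for Fads1, -0.11 to 0.59 for Tg, -0.31 to 0.37 for Foxe1, -1.06 to 2.28 for Pth and -2.60 to 6.42 for Alb. With the 6 libraries removed, the values were 0.43 for mt-Nd1, -0.06 for Ifih1, -0.16 for Gbp2, -0.15 for Fads1, -0.10 for Tg, -0.30 for Foxe1 and 6.42 for Alb. With the replicate block, Foxe1 was at -0.04 and Pth at -1.09, and with the block and only the groups compared, Alb was at 4.08 and mt-Nd1 at 0.02. DESeq2's size factors, DESeq2 itself, no filter, only the groups compared and removal of the 5 libraries turned no sign among the genes named.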
